A study of Mus musculus with 12 samples.

Results

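Sensors of bacterial cell wall and the proteins that carry their signal were followed, as 10 genes, in RNA sequencing libraries of mouse liver and small intestine. The genes are Tlr1, Tlr2, Tlr4, Tlr6, Cd14, Nod1, Nod2, Ripk2, Myd88 and Irak3. They were taken by symbol from a deposited expression table of 34348 genes, which holds a row for all 10. Liver and small intestine of C57BL/6 mice were each sampled after LCWE and after phosphate-buffered saline (PBS), the control, with 3 libraries in each of the 4 groups. LCWE is left unexplained in the labels; the letters commonly stand for Lactobacillus casei cell wall extract, with which a vasculitis that models Kawasaki disease is induced in mice. The authors' deposited differential table heads these groups LCWECFA without saying what CFA is, so the LCWE groups may have had a further agent. Age, sex, dose and time after treatment are not stated. LCWE libraries carry the replicate numbers 1, 2 and 4 and PBS libraries 2, 3 and 4, and values below follow that order. Whether each library is a separate animal is not stated, and the p-values therefore reflect only the spread between these libraries, which may be technical.

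Bacterial cell wall is sensed at the cell surface and in the cytoplasm. TLR2 pairs with TLR1 or TLR6 to recognise bacterial lipoproteins, and TLR4 with its partner MD-2 recognises lipopolysaccharide of Gram-negative bacteria, while CD14 hands ligands to both. NOD1 and NOD2 recognise peptidoglycan fragments inside the cell and signal through the kinase RIPK2, whereas the Toll-like receptors here signal through the adaptor MyD88 to NF-kappa B. IRAK3, also called IRAK-M, is an inhibitor of signalling below MyD88 that is best known from monocytes and macrophages. In liver, Kupffer cells are the main resident macrophages and meet bacterial products arriving in portal blood, and in the small intestine an epithelium, with immune and stromal cells beneath it, faces the bacteria of the lumen.

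All 10 genes were detected in every library, at between 4 reads (Nod2 in a PBS liver) and 832 reads (Myd88 in an LCWE intestine). Reads assigned to genes numbered 34741958 to 44921885 per liver library and 30294594 to 40253006 per intestinal library. Levels are given as RPKM, assigned reads divided by gene length and by the total of the library, so that genes of different length can be compared. The tissue labels were checked with Alb, the serum albumin gene, which lay between 10519 and 23555 RPKM in livers, and with Fabp2, an enterocyte fatty acid binding protein, which lay between 676 and 9408 RPKM in intestines. Fabp2 was at 3350, 2656 and 676 RPKM in LCWE intestines, against 9408, 9206 and 5747 RPKM in PBS intestines, so the intestinal groups did not overlap for this epithelial marker.

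Tlr1 and Tlr6 are neighbours on mouse chromosome 5, both on the minus strand, at 64924679 to 64933563 and at 64952031 to 64960097 in the mm10 positions of the deposited table. Part of their coding sequence is identical, which matters for every value of this pair because a read from such a stretch belongs to both genes. Of the 2734 windows of 50 bases in the Tlr1 transcript of GENCODE M21, 454 (16.6%) also occur in the Tlr6 transcript, and they make up 12.5% of the windows of Tlr6. Tlr2, on chromosome 3, shares none of its 2965 windows with either. The longest identical coding run is 229 bases long and covers bases 1468 to 1696 of the 2385 coding bases of Tlr1 and bases 1507 to 1735 of the 2418 coding bases of Tlr6. It is shown because reads within it cannot be told apart between the genes.
Tlr1 and Tlr6 shared run: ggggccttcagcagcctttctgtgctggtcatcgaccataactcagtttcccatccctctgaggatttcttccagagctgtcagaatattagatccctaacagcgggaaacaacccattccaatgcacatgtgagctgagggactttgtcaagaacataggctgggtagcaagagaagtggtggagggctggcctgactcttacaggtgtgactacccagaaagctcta
No source used here states how such reads were counted, so the levels of Tlr1 and Tlr6 are uncertain to that extent.

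Promoter sequences were available for 7 of the 10 genes, and Tlr4, Cd14 and Ripk2 were not among them. Windows of 260 bases, from 250 bases before the start to 10 bases into the transcript, were taken from RefSeq on GRCm38.p6 and searched on both strands for the kappa B consensus of NF-kappa B, GAGGAAGT for the myeloid factor PU.1, TGANTCA for AP-1 and GAAA, any 2 bases and GAAA for interferon regulatory factors. The windows of 3 genes are shown, Tlr1, Tlr2 and Irak3, which had, with Nod2, the largest ratios of LCWE to PBS in liver among the 7 genes. Nod2 ranked above Tlr2 (ratio of mean RPKM 2.86 against 2.78), but its window, which had no match, is not shown. The windows shown are therefore not a strict selection by rank. Capitals mark the motif matches, which are PU.1 in Tlr1 and kappa B in Tlr2, and Irak3 had no match.
Tlr1, minus strand, chr5:64933549-64933808: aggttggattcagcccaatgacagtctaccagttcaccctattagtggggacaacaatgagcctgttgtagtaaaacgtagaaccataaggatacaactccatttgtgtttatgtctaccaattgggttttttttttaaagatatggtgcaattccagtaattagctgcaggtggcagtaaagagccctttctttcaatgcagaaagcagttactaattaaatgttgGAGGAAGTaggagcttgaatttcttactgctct
Tlr2, minus strand, chr3:83841599-83841858: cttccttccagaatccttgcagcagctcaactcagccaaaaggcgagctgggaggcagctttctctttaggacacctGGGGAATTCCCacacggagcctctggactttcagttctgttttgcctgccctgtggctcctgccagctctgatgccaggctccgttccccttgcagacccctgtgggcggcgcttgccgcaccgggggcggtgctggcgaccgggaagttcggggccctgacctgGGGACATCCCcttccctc
Irak3, minus strand, chr10:120202121-120202380: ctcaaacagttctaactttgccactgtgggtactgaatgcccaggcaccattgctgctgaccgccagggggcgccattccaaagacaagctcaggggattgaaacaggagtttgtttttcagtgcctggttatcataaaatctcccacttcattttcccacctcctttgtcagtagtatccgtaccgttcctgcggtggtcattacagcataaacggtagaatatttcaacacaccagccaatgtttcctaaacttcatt
In Tlr2 the first capital stretch holds overlapping kappa B matches that begin at positions -173 and -172 relative to the start, and the second begins at position -8. That start lies 159 bases inside Tlr2 as placed in the deposited table, so the second stretch falls within the gene there. In Tlr1 the PU.1 letters begin at position -23. Myd88 had an interferon regulatory factor match in its window, whose start lies 1393 bases from the gene start of the deposited table, and Tlr6, Nod1 and Nod2 had no match. Over 32851 promoter windows, the kappa B motif was found in 7.46%, PU.1 in 2.6%, AP-1 in 7.03% and the interferon regulatory factor motif in 3.07%. A match describes letters in the window and is not evidence of binding, and a window with no match says only that these letters are absent from it.

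Myd88 was the most abundant of the 10 transcripts in all 4 groups, with means of 5.30 ± 0.571 RPKM in LCWE livers and 3.74 ± 0.485 in PBS livers, and of 7.66 ± 0.392 in LCWE intestines and 7.70 ± 0.242 in PBS intestines (SD, n = 3 each). In each group its lowest library lay above the highest library of the next gene. In LCWE livers Irak3 came next at 2.69 ± 0.677 RPKM, and its libraries overlapped those of Nod1, at 2.39 ± 0.164 RPKM (SD, n = 3 each). In PBS livers Irak3 came after Myd88, Nod1 and Ripk2, at 0.574 ± 0.143 RPKM, and overlapped Cd14, at 0.564 ± 0.0724 RPKM (SD, n = 3 each). Transcripts of the 4 Toll-like receptors were scarce in liver, where none reached 0.7 RPKM in a library. Nod2 was the lowest in both liver groups, overlapping Tlr6 in LCWE livers but not in PBS livers. In intestines Tlr1 stood out among the receptors, at 2.90 ± 0.165 RPKM after LCWE and 2.21 ± 0.0881 RPKM after PBS (SD, n = 3 each), and its libraries overlapped those of Irak3 in both groups. Tlr6 was the lowest in both intestinal groups but did not separate from the gene above it.

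**Figure D1:**
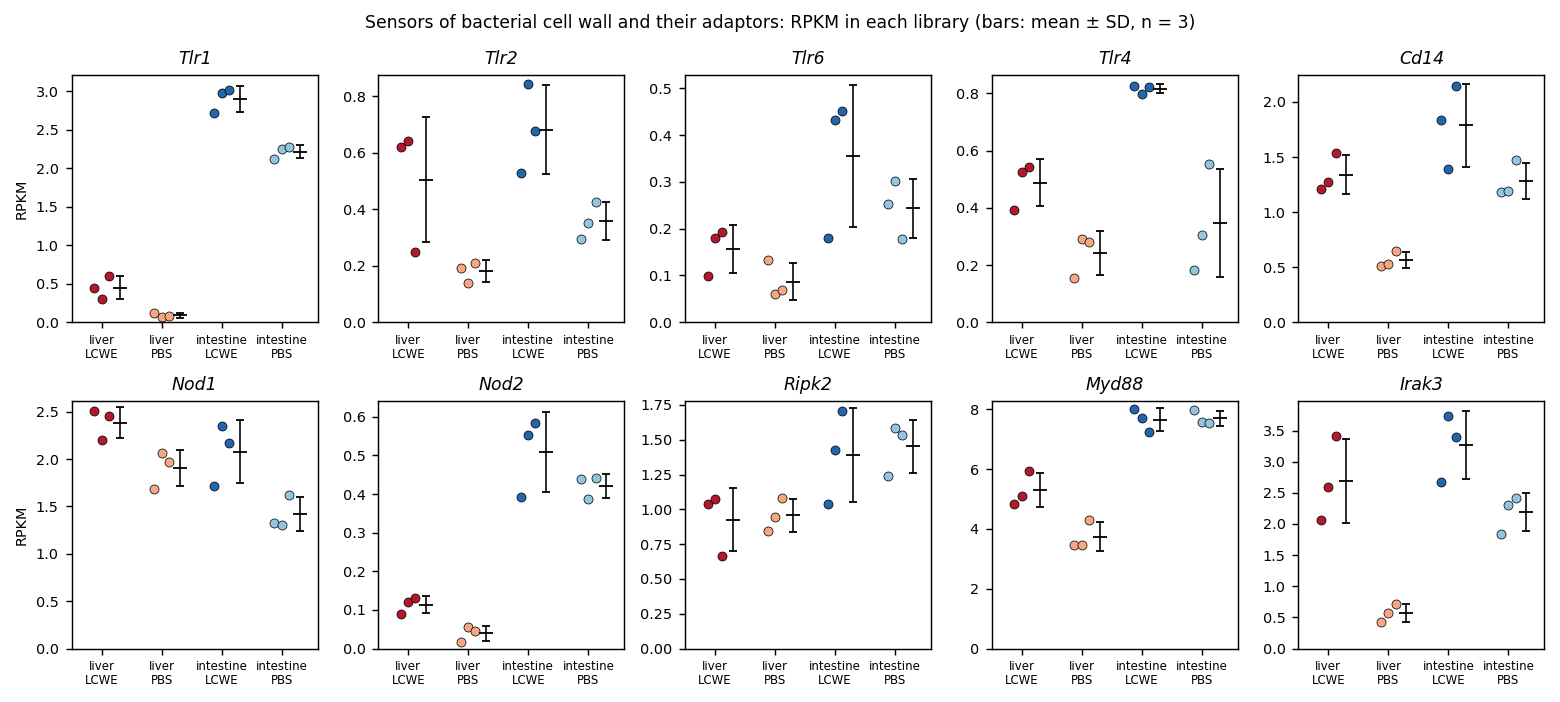
RPKM of each of the 10 genes in every library, with LCWE left of PBS within each tissue; points are libraries and bars give the mean ± SD of 3 libraries. In liver, the LCWE points of 8 genes lie above all PBS points, Tlr6 and Ripk2 being the exceptions, and Tlr1 is far lower in liver than in intestine.

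LCWE livers had more Irak3 and Cd14 transcript than PBS livers. In limma on log2(RPKM + 0.5), the 5 genes that reached 0.5 RPKM in at least 3 liver libraries (Cd14, Nod1, Ripk2, Myd88 and Irak3) were tested, and 2 of them rose and none fell at an adjusted p below 0.05, the threshold used throughout. Over all 14404 genes tested in liver, 4.04% passed, 3.39% upwards and 0.646% downwards. The remaining 5 genes, Tlr1, Tlr2, Tlr4, Tlr6 and Nod2, were too low for that filter. Without a test, every LCWE liver lay above every PBS liver for 8 of the 10 genes and below for none. Of the genes with at least 10 reads in 3 liver libraries, a condition that all 10 met, 19.7% lay wholly above and 8.09% wholly below.

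Irak3, the inhibitor, showed the widest difference among the tested genes. It was at 2.07, 2.59 and 3.41 RPKM in LCWE livers, against 0.433, 0.569 and 0.719 RPKM in PBS livers, from 289 to 436 reads and from 71 to 104 reads per library. The groups were wide apart, the lowest LCWE liver being well above the highest PBS liver. The ratio of mean RPKM was 4.69, and the log2 fold change was 1.56 ± 0.19 (SE; limma, adjusted p = 0.0122) on the log2(RPKM + 0.5) scale, where folds of low genes come out too small. On recovered reads with limma voom the log2 fold change was 2.23 (adjusted p = 0.00724), and the authors' deposited table gives 2.30 with a false discovery rate of 0.00101. The call ended without PBS replicate 3 (limma, adjusted p = 0.0595, log2 fold change 1.56) and without LCWE replicate 2 (adjusted p = 0.0690, log2 fold change 1.57). Exons of Irak3 overlap those of Tmbim4 on the other strand of chromosome 10, where Irak3 spans 120141648 to 120202130 on the minus strand (mm10), and it is not stated whether the libraries kept strand. Tmbim4 was at 3.08, 2.80 and 3.0 RPKM in LCWE livers and at 3.35, 2.56 and 2.49 RPKM in PBS livers, and these groups overlapped.

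Cd14, the coreceptor that passes ligands to TLR4 and TLR2, rose as well. It was at 1.21, 1.27 and 1.54 RPKM in LCWE livers, against 0.513, 0.533 and 0.647 RPKM in PBS livers, from 30 to 90 reads per library. The groups did not overlap, and the log2 fold change was 0.79 ± 0.13 (SE; limma, adjusted p = 0.0271), with a ratio of mean RPKM of 2.37. The call rested on all libraries but PBS replicate 2. Leaving out PBS replicate 3 gave a limma adjusted p of 0.10, and leaving out PBS replicate 4 gave 0.0638. Leaving out LCWE replicate 1, 2 or 4 gave 0.102, 0.123 and 0.0803 in that order, and the log2 fold change stayed between 0.71 and 0.84.

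Among the Toll-like receptors, Tlr1 had the largest ratio in liver. It was at 0.441, 0.299 and 0.602 RPKM in LCWE livers (56, 45 and 70 reads), against 0.121, 0.0667 and 0.0760 RPKM in PBS livers (18, 8 and 10 reads). The groups did not overlap, and the mean was 5.10 times as high in LCWE livers. Tlr6, its partner in position and sequence, was at 0.0990, 0.179 and 0.193 RPKM in LCWE livers and at 0.132, 0.0599 and 0.0682 RPKM in PBS livers. These groups overlapped through PBS replicate 2. The ratio of Tlr1 to Tlr6 within a library was 4.46, 1.67 and 3.1 in LCWE livers, against 0.911, 1.11 and 1.11 in PBS livers, without overlap but on as few as 8 reads of each gene.

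Tlr2, the shared partner of both, was at 0.621, 0.643 and 0.248 RPKM in LCWE livers, against 0.193, 0.139 and 0.211 RPKM in PBS livers. The LCWE livers were all higher, but replicate 4 lay close to the PBS livers with 26 reads, a number that PBS replicate 2 also had. Tlr4 was at 0.394, 0.525 and 0.544 RPKM in LCWE livers and at 0.153, 0.291 and 0.279 RPKM in PBS livers, without overlap and with a ratio of means of 2.02. The ratio of Cd14 to Tlr4 was 3.07, 2.43 and 2.83 in LCWE livers and 3.35, 1.83 and 2.32 in PBS livers, so it overlapped while both genes were higher after LCWE.

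To test all 10 genes, limma voom was run on recovered reads of genes with at least 10 reads in 3 libraries, a fit chosen after seeing the data, in which 4.81% of 17365 liver genes passed, 4.22% being upwards. In this fit 3 of the 10 passed, all upwards, namely Irak3, Cd14 and Tlr1, the last with a log2 fold change of 2.24 ± 0.44 (SE; adjusted p = 0.0332). Tlr1 did not pass in limma on log2(RPKM + 0.5) with no filter (adjusted p = 0.0840), where Irak3 alone of the 10 did, as did 1.18% of 28274 genes. The voom estimates for the others were 1.62 for Nod2 (adjusted p = 0.110), 1.38 for Tlr2 (0.149), 1.08 for Tlr4 (0.0879) and 0.83 for Tlr6 (0.36). The authors' deposited table lists 797 liver genes with a p-value below 0.05 and a fold of at least 2, where the expression table holds 34348 genes. Of the 797, 625 have a false discovery rate below 0.05. The list holds 5 of the 10. Besides Irak3 these are Tlr1, Tlr2, Cd14 and Tlr4, with log2 fold changes of 1.95, 1.57, 1.29 and 1.0 in the authors' deposited table. Their false discovery rates there are 0.0162, 0.0417, 0.0103 and 0.0334 in that order. Tlr2 and Tlr4 thus lie below 0.05 in the authors' table but did not pass in the fits given here.

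**Figure D2:**
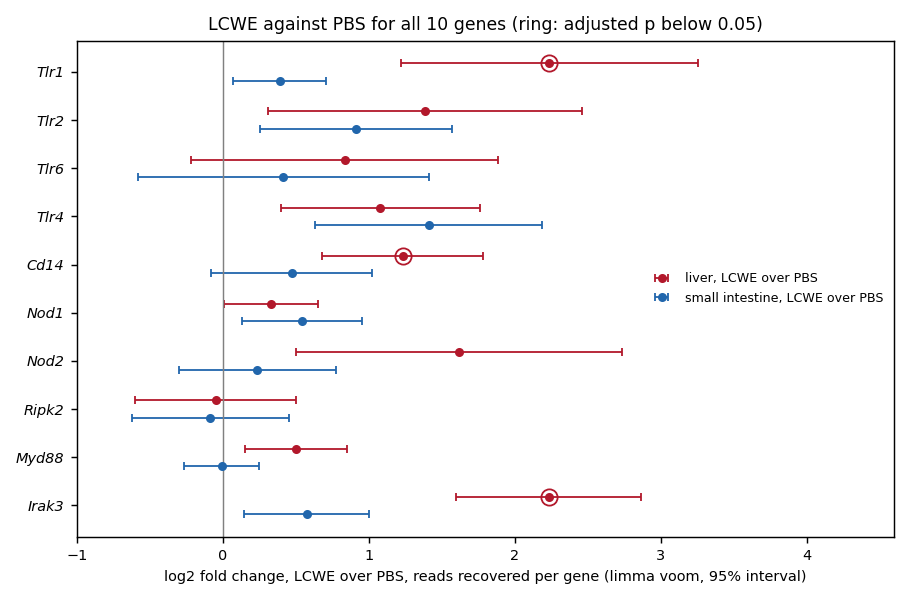
Log2 fold change of LCWE over PBS for all 10 genes in liver and in small intestine, from limma voom on recovered reads; points are estimates, bars 95% intervals, and rings mark an adjusted p below 0.05. Rings stand on Irak3, Tlr1 and Cd14 in liver and on no gene in the intestine.

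The cytoplasmic sensors stood at opposite ends of the range of levels, Nod1 being among the more abundant of the 10 genes in liver and Nod2 the lowest. Nod1 was at 2.51, 2.20 and 2.45 RPKM in LCWE livers, against 1.69, 2.06 and 1.97 RPKM in PBS livers. The groups did not overlap, but the log2 fold change of 0.26 ± 0.12 (SE) did not pass (limma, adjusted p = 0.297). Nod2 was at 0.0893, 0.120 and 0.132 RPKM in LCWE livers, against 0.0179, 0.0557 and 0.0456 RPKM in PBS livers, which is 17, 27 and 23 reads against 4, 10 and 9 reads. Every LCWE liver was higher, with a ratio of mean RPKM of 2.86, on so few reads that counting error is a large part of the spread. Nod1 exceeded Nod2 by 28.0, 18.4 and 18.6 times in LCWE livers and by 94.5, 37.0 and 43.2 times in PBS livers, without overlap.

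Ripk2, the kinase of both NOD receptors, was at 1.04, 1.08 and 0.664 RPKM in LCWE livers and at 0.843, 0.941 and 1.08 RPKM in PBS livers. The groups overlapped, LCWE replicate 4 being the lowest of all 6, and the 95% interval of the log2 difference ran from -0.42 to 0.34 (limma, adjusted p = 0.922). Myd88, the adaptor of the Toll-like receptors, was at 4.85, 5.12 and 5.94 RPKM in LCWE livers, against 3.46, 3.47 and 4.30 RPKM in PBS livers. The groups did not overlap, yet the log2 fold change of 0.45 ± 0.13 (SE) missed the threshold (limma, adjusted p = 0.123) and passed only in 1 fit over the 4 groups (adjusted p = 0.0304). Its exons overlap those of Acaa1a on the other strand of chromosome 9, which was at 16.3, 14.6 and 19.1 RPKM in LCWE livers and at 22.8, 15.4 and 16.6 RPKM in PBS livers. Those groups overlapped. Within each library, Irak3 was 0.427, 0.507 and 0.574 times the level of Myd88 in LCWE livers, against 0.125, 0.164 and 0.167 times in PBS livers, so the inhibitor was higher in proportion to the adaptor in every LCWE liver.

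**Figure D3:**
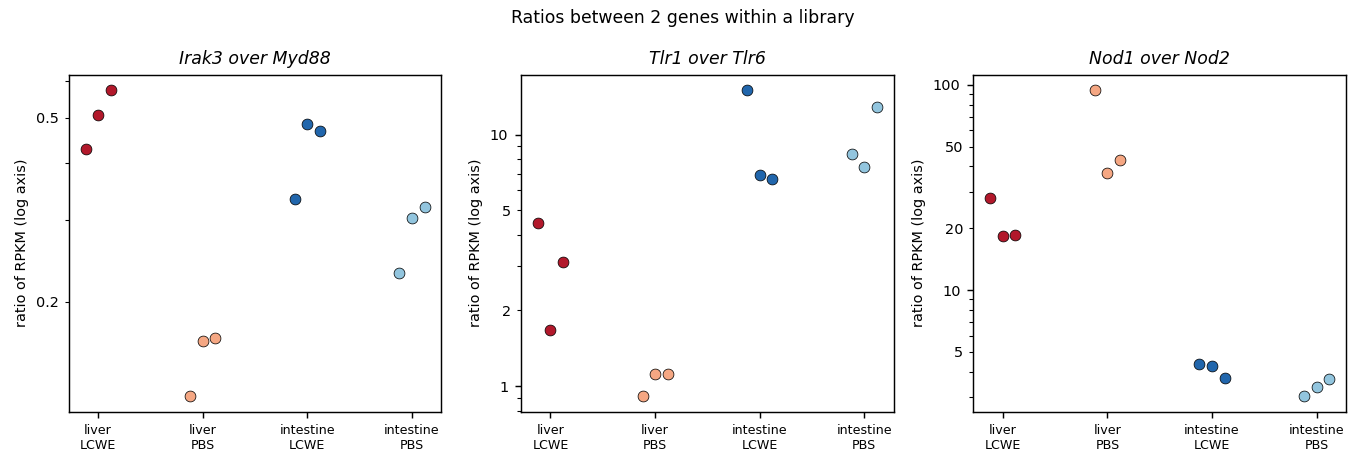
Ratio of RPKM between pairs of genes within each library, on log axes, with LCWE left of PBS in each tissue; each point is a library. The ratio of Irak3 to Myd88 separates the groups in both tissues, and that of Tlr1 to Tlr6 separates the liver groups but not the intestinal groups. Nod1 over Nod2 is lower in LCWE livers than in PBS livers, on few Nod2 reads, and higher in LCWE intestines than in PBS intestines by a narrow margin.

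Markers of several cell types, myeloid cells among them, moved with these genes in liver. The summed RPKM of 12 Kupffer cell and macrophage markers was 385, 447 and 454 in LCWE livers, against 230, 229 and 239 in PBS livers, and all 12 were higher without overlap, 8 of them past the threshold in limma. The sum over 8 monocyte markers was 117 to 163 in LCWE livers and 41.3 to 59.9 in PBS livers, with Chil3 at 0 in all PBS livers and 3 of 3 tested markers risen. The sum over 12 neutrophil markers was 18.2 to 41.8 in LCWE livers and 1.71 to 4.64 in PBS livers, with 3 of 4 tested markers risen. For scale, 3.39% of all genes tested in liver rose, and 19.7% of genes with at least 10 reads in 3 liver libraries lay wholly above. Only markers that reached 0.5 RPKM in at least 3 liver libraries were tested. Low ones may have entered through the LCWE livers alone, which was not checked. Sums without overlap were also found for 9 T and NK cell markers, at 4.33 to 5.59 in LCWE livers and 1.91 to 2.79 in PBS livers (1 of 3 tested risen), and for 8 endothelial markers, at 70.2 to 75.6 in LCWE livers and 62.1 to 69.3 in PBS livers (1 of 8 risen). For 7 markers of stellate cells and fibroblasts the sum was 32.5 to 38.2 in LCWE livers and 29.9 to 31.0 in PBS livers, with none of 7 risen. Over 8 hepatocyte markers the sum was 30366 to 34309 in LCWE livers and 37752 to 52028 in PBS livers, but 3 of the 8 had the higher mean in LCWE livers, 1 of them without overlap, and none passed the threshold. In bulk tissue, a difference in the number of cells of a type and one in RNA per cell cannot be told apart, and the part of these markers in the results for Irak3, Cd14 and Tlr1 was not tested.

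Set against the summed macrophage markers of the same library, some of the genes were higher in every LCWE liver, some were lower and others overlapped. Irak3 was at 0.538, 0.580 and 0.752 RPKM per 100 RPKM of macrophage markers in LCWE livers, against 0.188, 0.248 and 0.301 in PBS livers. These groups did not overlap. Cd14 was at 0.313, 0.285 and 0.339 on the same scale in LCWE livers and at 0.223, 0.232 and 0.271 in PBS livers, without overlap but with a narrow gap. Tlr1, at 0.114, 0.0670 and 0.133 in LCWE livers and 0.0525, 0.0291 and 0.0318 in PBS livers, was also higher throughout. Myd88 was lower in every LCWE liver on this scale, with 1.26, 1.14 and 1.31 in LCWE livers and 1.51, 1.51 and 1.80 in PBS livers, and Nod1 and Ripk2 were likewise lower in every LCWE liver. Tlr2, Tlr4, Tlr6 and Nod2 overlapped between the groups on this scale. The macrophage sum was itself higher in every LCWE liver, so a gene that is level or rises less tends to come out lower by arithmetic. The share of all genes that came out higher or lower on this scale was not computed.

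The picture depended on the marker list used as the divisor. Per 100 RPKM of monocyte markers, Irak3 was at 1.77, 2.19 and 2.10 in LCWE livers, against 1.0, 1.38 and 1.2 in PBS livers, again without overlap. Cd14 was then lower in every LCWE liver, at 1.03, 1.08 and 0.946, against 1.19, 1.29 and 1.08 in PBS livers, by a narrow margin between LCWE replicate 2 and PBS replicate 4. Tlr1 overlapped on this scale, at 0.378, 0.253 and 0.370 in LCWE livers and 0.279, 0.161 and 0.127 in PBS livers. Per 100 RPKM of neutrophil markers, Irak3 and Tlr1 overlapped between the groups and Cd14 was lower in every LCWE liver. In liver, none of the 10 genes was higher without overlap against all 3 marker sums. The neutrophil sum was itself 18.2 to 41.8 in LCWE livers and 1.71 to 4.64 in PBS livers. A gene that rises less than its divisor tends to come out lower or overlapping by arithmetic. The count therefore carries no result about the 10 genes, and the share of all genes was not computed.

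**Figure D4:**
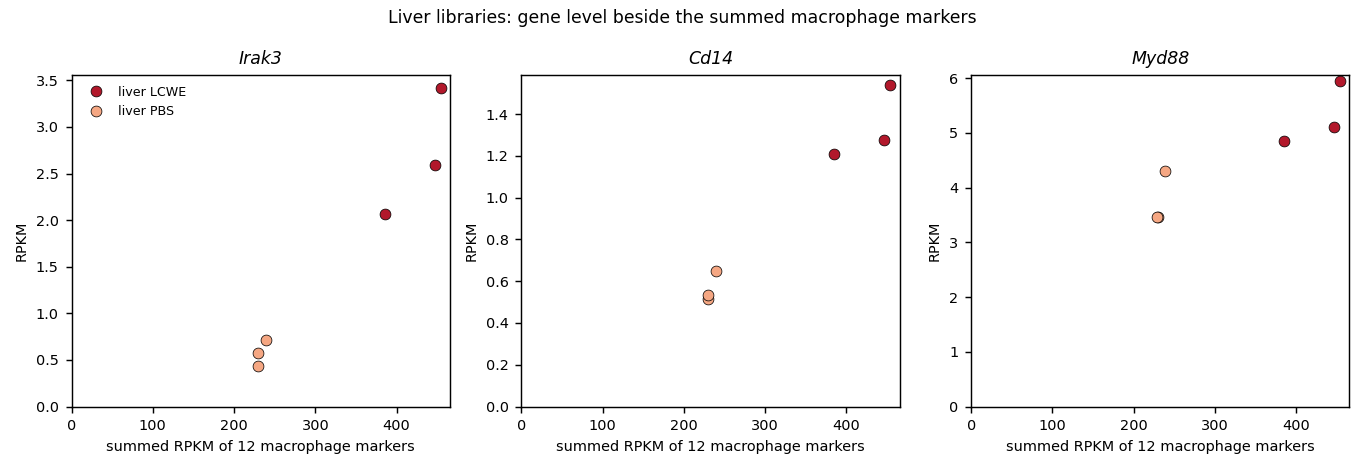
RPKM of Irak3, Cd14 and Myd88 in each liver library against the summed RPKM of 12 macrophage markers in the same library. LCWE livers lie at marker sums of 385 to 454 and PBS livers at 229 to 239, and the LCWE livers are higher for all 3 genes.

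Other genes of the same pathway were counted by role in liver, where the median log2 fold change was 0.06 over all genes tested and 0.45 over the 5 tested sensors and adaptors. Among 7 tested ligand carriers and coreceptors (median 0.27), Lbp, which carries lipopolysaccharide in plasma to CD14, rose by 1.19 on the log2 scale (limma, adjusted p = 0.00557) and was the only one to pass. Among 7 tested Toll-like receptors and chaperones beyond the members (median 0.48), 2 rose, both chaperones. Hsp90b1, the endoplasmic reticulum chaperone that folds Toll-like receptors, rose by 1.10 (limma, adjusted p = 0.00835). Unc93b1, which escorts nucleic acid sensing Toll-like receptors, rose by 0.66 (limma, adjusted p = 0.0322). Tlr7, Tlr9, Tlr11 and Tlr13 were below the filter and not tested. Their LCWE livers lay wholly above their PBS livers, as did 19.7% of genes with at least 10 reads in 3 liver libraries. The authors' deposited table lists Tlr7, Tlr8, Tlr9 and Tlr13 as higher, with false discovery rates of 0.0292, 0.00888, 0.0201 and 0.00923. Of 24 tested genes that transmit the signal (median 0.07), Birc2, a ubiquitin ligase, alone passed, with a log2 fold change of 0.61 (limma, adjusted p = 0.0245).

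Of 12 tested inhibitors (median 0.43), 4 rose, where 3.39% of all genes tested in liver did, and no test compared the lists with each other. Tnfaip3, the ubiquitin-editing enzyme A20, rose by 1.33 (limma, adjusted p = 0.00557), and Tnip1, which binds A20, by 0.70 (adjusted p = 0.0129). Ly86, the secreted partner of RP105 in restraining TLR4, rose by 1.10 (limma, adjusted p = 0.00994), and Nlrc5, described as a regulator of NF-kappa B and of MHC class I genes, by 0.91 (adjusted p = 0.0257). Of 7 further tested receptors of microbial cell walls (median 0.50), Clec4n, the fungal mannan receptor Dectin-2, rose by 1.02 (limma, adjusted p = 0.0191) and Marco, a scavenger receptor of macrophages, by 2.96 (adjusted p = 0.0369). Of 8 tested early target genes (median 0.46), the adhesion molecule Icam1 rose by 1.17 (limma, adjusted p = 0.00847) and the monocyte chemokine Ccl2 by 1.33 (adjusted p = 0.0416). No gene of these 6 lists fell past the threshold in liver. Low genes of the lists went untested, among them Ticam2 and Clec4e. The authors' deposited table gives these log2 fold changes of 1.77 and 4.74, with false discovery rates of 0.00455 and 0.00296. It also lists further genes of the 6 lists that did not pass here. Tnfaip3 and Ccl2 reached the filter in LCWE livers only, as did 3 uncalled genes of these lists, whereas no gene of the lists reached it in PBS livers only, so the counts and medians lean upwards through the filter. Marco and Ly86 are themselves expressed by macrophages, whose markers were higher in these livers as given above.

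**Figure D5:**
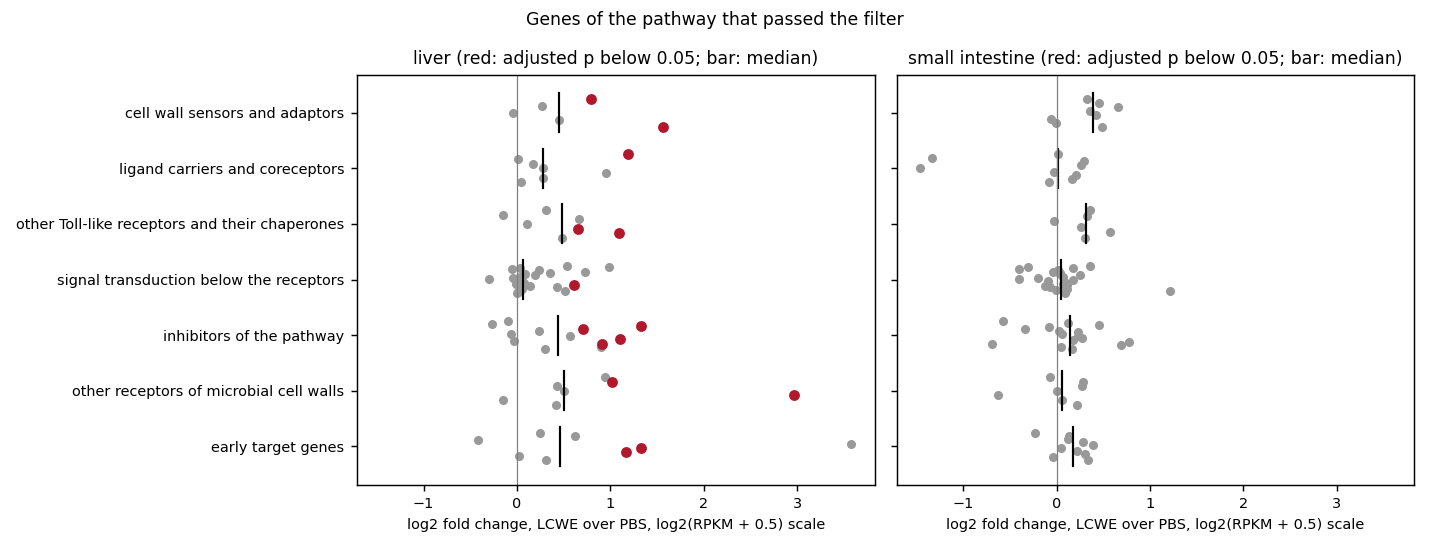
Log2 fold change of LCWE over PBS on the log2(RPKM + 0.5) scale for each tested gene, by role, in liver and in small intestine; red points passed an adjusted p below 0.05 and bars mark the median of a list. In liver 2 sensors and adaptors and 4 inhibitors are red, and in the intestine no point is.

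In the small intestine no gene passed the test, although 5 of the 10 separated the groups. The 8 genes above the filter, which left out Tlr6 and Nod2, gave 0 calls in limma, as did all 17510 genes tested (0% passed), and limma voom gave 0 as well. The authors' deposited table lists 220 intestinal genes, with 0 of the 10 among them. At an unadjusted p below 0.05 there were 2202 genes, among them 5 of the 8, of which Tlr2 reached the filter in LCWE intestines only. Every LCWE intestine lay above every PBS intestine for Tlr1, Tlr2, Tlr4, Nod1 and Irak3 and below for none, whereas 13.0% of all genes with at least 10 reads in 3 intestinal libraries lay wholly above and 5.76% wholly below.

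Tlr4 had the largest intestinal estimate. It was at 0.827, 0.799 and 0.824 RPKM in LCWE intestines, against 0.184, 0.304 and 0.553 RPKM in PBS intestines. The LCWE libraries were nearly alike, while the PBS libraries were spread out below them, and the log2 fold change was 0.66 ± 0.19 (SE; limma, adjusted p = 0.285). Tlr1 was at 2.71, 2.98 and 3.01 RPKM in LCWE intestines, against 2.11, 2.25 and 2.28 RPKM in PBS intestines. All LCWE libraries were higher by a small margin, with a log2 fold change of 0.32 ± 0.10 (SE; limma, adjusted p = 0.315). Irak3 was at 2.68, 3.73 and 3.40 RPKM in LCWE intestines, against 1.85, 2.30 and 2.42 RPKM in PBS intestines. Its groups did not overlap, and the log2 fold change was 0.48 ± 0.15 (SE; limma, adjusted p = 0.319).

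Tlr2 was at 0.528, 0.842 and 0.676 RPKM in LCWE intestines, against 0.295, 0.352 and 0.427 RPKM in PBS intestines (limma, log2 fold change 0.46, adjusted p = 0.344). Nod1 was at 1.71, 2.35 and 2.17 RPKM in LCWE intestines, against 1.33, 1.30 and 1.62 RPKM in PBS intestines (limma, log2 fold change 0.42, adjusted p = 0.335). Neither overlapped, and for both LCWE replicate 1 was the lowest of its group. Cd14, at 1.83, 1.39 and 2.14 RPKM in LCWE intestines and 1.18, 1.19 and 1.47 RPKM in PBS intestines, overlapped through LCWE replicate 2 (limma, adjusted p = 0.428).

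Myd88 was level between the intestinal groups, at 8.02, 7.70 and 7.24 RPKM after LCWE and 7.98, 7.56 and 7.56 RPKM after PBS, and the 95% interval of the log2 difference ran from -0.22 to 0.20. Ripk2 overlapped too, at 1.04, 1.42 and 1.71 RPKM in LCWE intestines and 1.24, 1.59 and 1.54 RPKM in PBS intestines. Nod2 was at 0.391, 0.552 and 0.583 RPKM in LCWE intestines and 0.439, 0.386 and 0.441 RPKM in PBS intestines, and Tlr6 at 0.180, 0.433 and 0.452 RPKM in LCWE intestines and 0.253, 0.302 and 0.177 RPKM in PBS intestines. In both genes the LCWE library of replicate 1 lay within the PBS range and the other two LCWE libraries above it. The ratio of Irak3 to Myd88 was 0.334, 0.485 and 0.469 in LCWE intestines and 0.231, 0.304 and 0.321 in PBS intestines, which did not overlap. Nod1 exceeded Nod2 by 4.37, 4.26 and 3.73 times in LCWE intestines and by 3.03, 3.38 and 3.68 times in PBS intestines. The groups did not overlap, but only by the narrow margin of 3.73 against 3.68. The direction was opposite to that in liver, where PBS livers held 4 to 10 Nod2 reads. The ratio was not compared between tissues by a test. Cd14 over Tlr4 was 2.22, 1.74 and 2.60 in LCWE intestines and 6.43, 3.93 and 2.66 in PBS intestines. It was lower after LCWE without overlap, by a narrow margin. Nod1 over Ripk2 and Tlr2 over Tlr1 were higher in every LCWE intestine, whereas both overlapped in liver. Tlr2 over Tlr6 overlapped in both tissues.

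The intestinal libraries also differed in markers of epithelium and of position along the gut, and the part of these in the values above was not tested. The sum over 8 enterocyte markers was 1709 to 5857 RPKM in LCWE intestines and 8965 to 18322 RPKM in PBS intestines. Over 6 markers of proximal small intestine it was 52.0 to 124 RPKM in LCWE intestines and 106 to 1681 RPKM in PBS intestines, and over 5 markers of distal small intestine 4161 to 6250 RPKM in LCWE intestines and 447 to 3894 RPKM in PBS intestines. None of these markers passed the threshold. The sum over the 12 macrophage markers was 82.8 to 108 RPKM in LCWE intestines and 78.4 to 87.1 RPKM in PBS intestines, and no marker separated the groups upwards. The sum over 12 neutrophil markers was higher without overlap, at 3.0 to 3.22 RPKM in LCWE intestines and 1.75 to 2.71 RPKM in PBS intestines, with Ly6g at 0 in both groups and Elane at 0 after LCWE. The sum over 7 colon markers was lower without overlap, at 42.7 to 59.2 RPKM in LCWE intestines and 73.9 to 94.4 RPKM in PBS intestines, although 5 of the 7 had the higher mean after LCWE. No marker of either list passed the threshold. Per 100 RPKM of the macrophage markers, Tlr4 was at 0.999, 0.758 and 0.764 in LCWE intestines and 0.234, 0.348 and 0.668 in PBS intestines. These groups did not overlap. Tlr4 was also higher without overlap against the monocyte and neutrophil sums. For monocytes the margin was narrow, with 0.449 in LCWE replicate 4 against 0.433 in PBS replicate 4. The share of all genes that came out higher was not computed.

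Of the pathway genes in the intestine, none passed in any of the 6 lists. The smallest p of each list belonged to the lipid and lipoprotein scavenger receptor Cd36 (log2 fold change -1.33, limma, adjusted p = 0.154), Hsp90b1 (0.57, 0.277), the kinase Chuk (-0.40, 0.242), Nlrc5 (0.78, 0.236), Nlrp6 (0.21, 0.431), an inflammasome sensor of gut epithelium, and Zc3h12a (0.33, 0.303), a ribonuclease that degrades cytokine transcripts. The value after each log2 fold change is the adjusted p.

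The effect of LCWE was compared between tissues as the liver difference minus the intestinal difference in 1 fit over the 4 groups. None of the 8 genes tested passed in limma, where 0.736% of 18619 genes did. At an unadjusted p below 0.05 there were 2391 of the 18619 genes, among them 2 of the 8, Irak3 and Myd88. For Irak3 the liver effect exceeded the intestinal effect by 1.08 on the log2(RPKM + 0.5) scale, with a 95% interval from 0.52 to 1.63 (limma, adjusted p = 0.0784). With median-ratio scaling the same difference was 1.2 (limma, adjusted p = 0.0339), and with limma voom it was 1.65 (adjusted p = 0.0456), so the call for Irak3 turns on the setting. For Myd88 the difference was 0.46 (limma, adjusted p = 0.220). Cd14 stood at 0.44, with a 95% interval from -0.0038 to 0.87, and Tlr4 at -0.24, with an interval from -0.74 to 0.25 (limma, adjusted p = 0.395 and 0.713). In the same comparison, 5 pathway genes passed with a positive difference, the inhibitors Tnfaip3 (1.41, limma, adjusted p = 0.00880) and Tnip1 (1.04, adjusted p = 0.0224), the adaptor Ticam1 (1.30, adjusted p = 0.0452), Marco (3.59, adjusted p = 0.0418) and Cd36 (1.51, adjusted p = 0.0307). For Cd36 the liver estimate was 0.18 and the intestinal estimate -1.33, so its difference comes mostly from the intestinal side, whereas for the other 4 the liver estimate was the larger in size.

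Between PBS livers and PBS intestines, Tlr1 differed most. It was at 0.121, 0.0667 and 0.0760 RPKM in PBS livers, against 2.11, 2.25 and 2.28 RPKM in PBS intestines, a ratio of means of 0.0396 and a log2 difference of -2.21 on the log2(RPKM + 0.5) scale (limma, adjusted p = 2.10e-08). Irak3 differed by -1.33 (limma, adjusted p = 3.23e-05). In all, 6 of the 8 tested genes passed in this comparison, and so did 77.1% of all genes, 16.6% being higher and 60.5% lower in liver, with a median of -0.69 over all genes. Relative to that median, Tlr1, Irak3, Myd88 (-0.96; limma, adjusted p = 9.02e-06) and Cd14 (-0.74, adjusted p = 0.000510) lay lower in liver. Nod1 was higher in liver, by 0.33 (adjusted p = 0.0332). Ripk2 (-0.42, adjusted p = 0.0349) and the uncalled Tlr2 (-0.33) and Tlr4 (-0.17) lay above the median. Under quantile scaling, which brings the median of all genes close to 0, Cd14, Ripk2, Tlr2 and Tlr4 changed sign. Nod2, below the filter, was at 0.0179, 0.0557 and 0.0456 RPKM in PBS livers and at 0.439, 0.386 and 0.441 RPKM in PBS intestines. Nod1 was at 37.0 to 94.5 times the level of Nod2 in PBS livers and at 3.03 to 3.68 times in PBS intestines.

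For the 5 genes tested in both tissues, the non-member genes with the nearest profile over the 12 libraries were found by the root mean square difference of centred log2(RPKM + 0.5) values. For Irak3 these were Lyz2, the lysozyme of myeloid cells, at 0.121, and Fyb, an adaptor of blood cells, at 0.171, where the median over 10964 candidate genes was 0.691. For Cd14 they were Ppme1 and Fam126a, at 0.147 and 0.152. For Nod1 they were Fam173b and Rwdd4a (0.0702 and 0.109), for Ripk2 Ccdc17 and Zfp639 (0.0944 and 0.105), and for Myd88 Sec24c and Srp54a (0.0971 and 0.102). These distances describe the 12 libraries, which include both tissues, and carry no test.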

How the data were processed

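Total RNA libraries of small intestine and liver were analysed from 2 tables deposited by the authors. One holds RPKM for every gene in each library, made by the authors from assigned reads, gene length and library total, as the values show. Per the submitters' processing notes, the build was mm10 and the tools were edgeR 3.12.1, Subread 1.5.1, featureCounts and Trimmomatic 0.36, with no roles given; no source used here names the aligner. Of 16 library columns, 12 matched samples and 4 matched none and were not used. Reads recovered from RPKM and gene length were whole for 100% of nonzero values (tolerance 0.001). The other, a differential table, holds log2 fold changes, p-values and false discovery rates deposited by the authors.

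Genes that reached 0.5 RPKM in 3 or more libraries entered the test, which was run on log2(RPKM + 0.5) by limma 3.58.1 under R 4.3.3 (lmFit and eBayes with trend, two-sided p, Benjamini-Hochberg adjustment over all genes). Each tissue was fitted apart; tissue comparisons used 1 fit over the 4 groups. With 3 libraries a group the smallest two-sided p of an exact permutation test is 0.1, so none was used. Alternatives were other pseudocounts, filters and scalings, a joint fit over 4 groups, a replicate block, leaving out each library, and limma voom on recovered reads; the voom fit with at least 10 reads in 3 libraries was chosen after seeing the data. The procedure was checked on simulated data.

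The members and gene lists were chosen with earlier results of these data known, so their counts are no independent evidence. All members are named, and from each pathway list up to 5 genes past the threshold with the smallest p, or the 1 with the smallest p. In the comparison of effects between tissues, pathway genes past the threshold are named. Listed genes absent from the table were not analysed here. Replicate numbers were not shown to pair libraries, with only 2 numbers shared by the groups of a tissue: deviations from group means of same-numbered libraries correlated at -0.102 and -0.053 in liver and at 0.092 and 0.115 in intestine. Liver and intestine libraries of a number may come from the same animal, which the labels do not say and the fit over 4 groups ignores; their deviations correlated at -0.075 to 0.088. Promoters are from RefSeq (GRCm38.p6) and transcripts from GENCODE M21.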

Additional observations from a re-analysis of the deposited data

How the results depend on the processing

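In liver, 2 of the sensors and adaptors and 582 genes in all passed. Without a filter 1 and 335 passed, with 1 fit over 4 groups 3 and 987, and with the replicate block 0 and 24; without each library in turn the numbers ran from 0 to 2 and from 55 to 943. Of all liver calls, 489 were higher and 93 lower, against 348 and 125 with quantile scaling and 355 and 125 with median-ratio scaling. Irak3 passed in 13 of 16 alternatives (limma, adjusted p from 0.000496 to 0.121, the highest with the replicate block) and Cd14 in 9 of 16 (0.00728 to 0.352, the highest likewise). In the intestine no member passed under any alternative; 0 genes in all passed, but 243 did with 1 fit over 4 groups, and 0 to 70 without 1 library. For the tissue difference, 0 members and 137 genes passed; median-ratio scaling gave 1 member and 206 genes, both voom fits 1 member each (Irak3 in all 3), the replicate block 12 genes, and leaving out a library 20 to 461 genes. Between PBS tissues, 6 members passed, 3 with median-ratio scaling and 4 to 7 without a library, and Tlr1 and Irak3 passed in all 21 alternatives.

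Some log2 values changed sign. Without a library, Ripk2 ran from -0.12 to 0.10 in liver and from -0.177 to 0.0824 in intestine, where the replicate block gave 0.13, and intestinal Myd88 from -0.0414 to 0.0278. For the tissue difference, Ripk2 was -0.0212 with quantile and -0.0162 with median-ratio scaling and ran from -0.12 to 0.16 without a library, and Tlr2 from -0.0268 to 0.28, while Tlr6, at 0.43 in the voom fit, was -0.0252 in limma with no filter. Between PBS tissues, quantile scaling gave 0.24 for Tlr2, 0.41 for Tlr4, 0.0509 for Cd14 and 0.39 for Ripk2, and median-ratio scaling 0.11 for Tlr4 and 0.15 for Ripk2. The cause of these changes was not tested. Replicate numbers were not shown to pair the libraries, so the block values bear on the choice of fit. Depth limits the low genes most, with Nod2 at 4 to 10 reads in PBS livers, and 3 libraries a group leave wide intervals.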
